A study of Drosophila melanogaster with 8 samples.

Results

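The 4 genes nAChRalpha4, nAChRbeta3, 5-HT2A and 5-HT1A encode neurotransmitter receptors of the fly. They were taken by name from the 6793 named genes of a 2-colour cDNA array, on which each has 2 spots. They were chosen with earlier results of these arrays in view: the nicotinic genes for their day 10 values and the serotonin receptor genes for their day 14 values. Those values, and the differences between days that contain them, are therefore descriptions without a test. The parts that the choice did not use were the serotonin receptor genes at day 10, which were tested, and the nicotinic genes at day 14, where neither had a value. That day 10 test was not independent of the choice, because its fit shared a dye term and a variance with the day 14 arrays.

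Pooled heads of unmated male Drosophila melanogaster, wild-type Oregon-R, were compared with pooled heads of parallel controls. The day 14 flies, aged 3 to 4 days at the start, ate pentylenetetrazole for 7 days, sodium valproate for 3 days and normal food for 4 further days (4 arrays). The day 10 flies had the same drugs for the same times and were collected at the end of valproate (4 arrays). Control flies ate normal food until the same day. The drug concentrations are not settled. Valproate is at 0.33 mg/ml in the sample labels and at 24 mg/ml in the series text, and pentylenetetrazole at 8 mg/ml and at 0.33 mg/ml. Every treated pool had both drugs, so the drugs' separate parts cannot be told apart here. Pentylenetetrazole provokes seizures by blocking GABA-A receptors. Valproate, a histone deacetylase inhibitor, is used against epilepsy.

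Acetylcholine is the main fast excitatory transmitter of the insect brain. It opens nicotinic receptors, cation channels built of 5 subunits, of which alpha subunits carry a pair of adjacent cysteines at the binding site and beta subunits do not. Serotonin acts in flies through G protein-coupled receptors. 5-HT1A lowers cyclic AMP, 5-HT2A raises intracellular calcium through the Gq pathway, and 5-HT7 raises cyclic AMP. Serotonin modulates sleep, feeding, aggression and memory in the fly.

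Values are log2 ratios of treated over control RNA after each array was centred on its median, with 2 of the 4 arrays of each day dye-swapped. The arrays held 11208 to 14421 spot values at day 14 and 13524 to 19905 at day 10. A pair of readings of the table matters for every sign below. Each value was read as Cy5 over Cy3, which is likely from the labels but not stated, and the opposite reading would turn all signs. Swapped arrays were read as not yet turned, because medians of print blocks on arrays of opposite orientation correlated above 0 in all 16 pairs (0.18 to 0.87). A ratio from whole heads cannot tell fewer cells of a type from less RNA per cell.

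The nicotinic genes stood above 0 on every day 10 array. nAChRalpha4, also called redeye and known in flies for promoting sleep, had log2 ratios of 0.70, 0.33, 0.48 and 0.34 on day 10 replicates 1 to 4. nAChRbeta3, which encodes a beta-type subunit, had 0.47, 0.11, 0.75 and 0.26 on the same arrays. Replicate 1 was highest for nAChRalpha4 and replicate 3 for nAChRbeta3, and replicate 2 was lowest for both. Of features with 4 values at day 10, 6.32% lay above 0 on all 4 arrays, a share from which nothing is read here because the genes were picked on this comparison.

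The fitted ratio of nAChRalpha4 at day 10 was 0.46 ± 0.15 (SE, n = 4 arrays), or 1.38-fold, with an SD of 0.17 between arrays. That of nAChRbeta3 was 0.40 ± 0.17 (SE, n = 4), or 1.32-fold, with an SD of 0.28. These fitted values were higher than those of 96.1% and 93.7% of the named genes fitted at day 10. On single arrays the positions were less extreme, with 70.6% to 83.1% of named genes below nAChRalpha4 and 57.1% to 92.2% below nAChRbeta3. The dye term was within its standard error for both genes, at 0.05 ± 0.15 for nAChRalpha4 and -0.11 ± 0.17 for nAChRbeta3, against a median size of 0.21 over all features fitted at day 10. If the swapped arrays had been turned before deposit, the ratios would be 0.05 for nAChRalpha4 and -0.11 for nAChRbeta3.

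**Figure D1:**
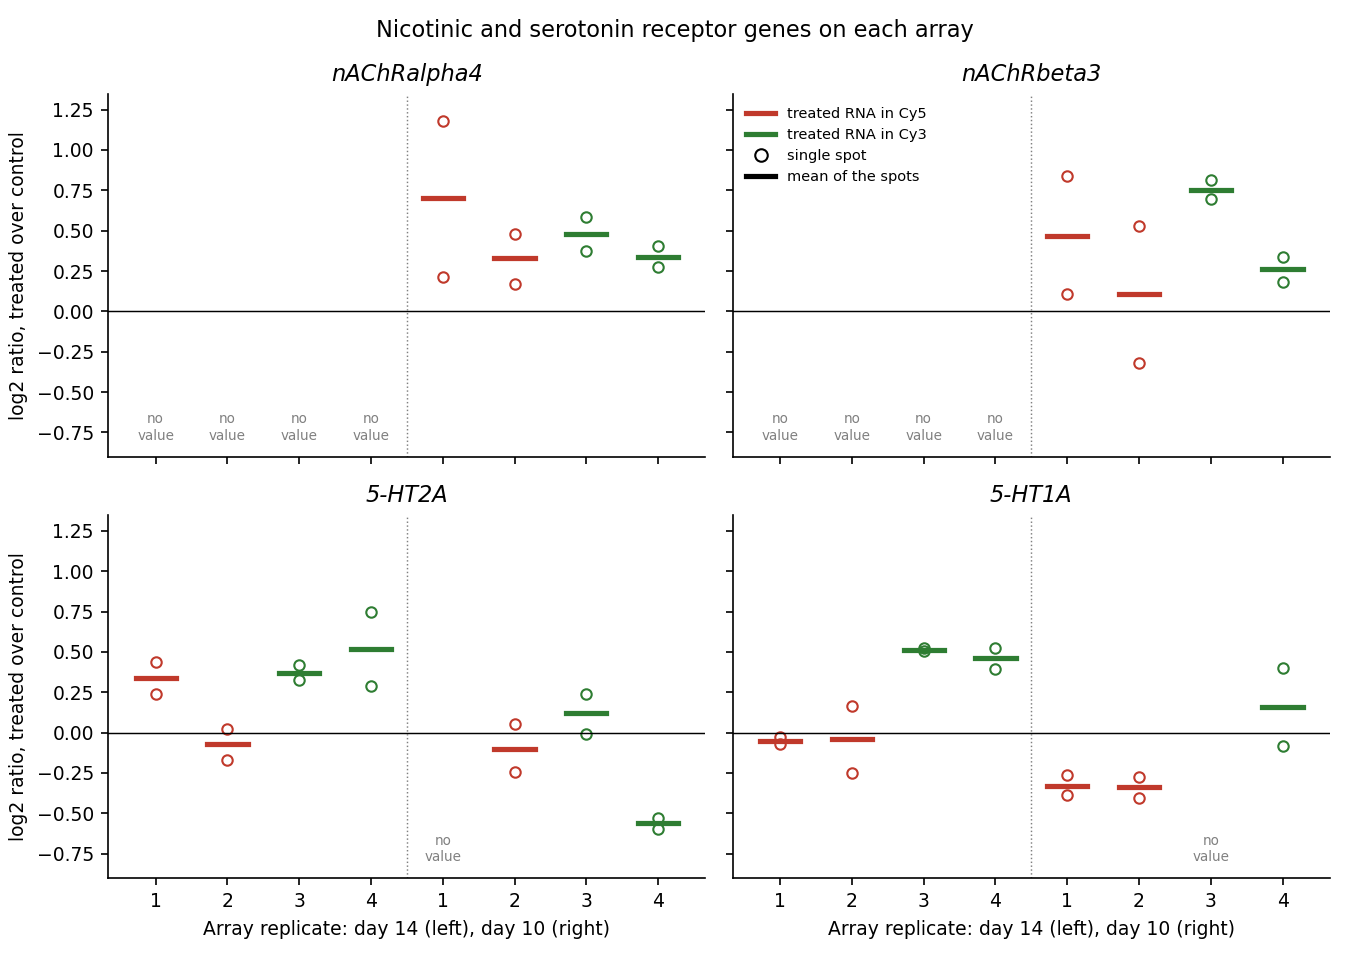
Log2 ratio of treated over control RNA (y axis) on each array (x axis: day 14 replicates 1 to 4 on the left of each panel, day 10 replicates 1 to 4 on the right) for the 4 genes; open circles are single spots, bars their mean, and colour shows the dye of the treated RNA. The nicotinic genes lie above 0 on all 4 day 10 arrays and have no value at day 14, and the 5-HT1A bars separate by dye at day 14.

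The 2 spots of the nicotinic genes gave different sizes. For nAChRalpha4 on day 10 replicate 1, the first spot was at 1.18 and the second at 0.21, a gap larger than that of 91.7% of the spot pairs on the array. The remaining gaps of nAChRalpha4 were 0.31, 0.21 and 0.13, larger than those of 60.1%, 59.1% and 36.3% of pairs. Fitted from the first spots alone nAChRalpha4 was at 0.66 ± 0.18, and from the second spots alone at 0.26 ± 0.14 (SE, n = 4 each), with all 8 spot values above 0.

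nAChRbeta3 had gaps of 0.73 and 0.85 on day 10 replicates 1 and 2, larger than those of 85.9% and 89.1% of pairs. On replicates 3 and 4 its gaps were 0.12 and 0.15, larger than those of 36.7% and 40.7% of pairs. On replicate 2 its spots had opposite signs, 0.53 and -0.32. Its first spots alone gave 0.60 ± 0.16 and its second spots alone 0.20 ± 0.18 (SE, n = 4 each). For both nicotinic genes the fitted ratio from the second spots was smaller than that from the first, with the same sign.

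**Figure D2:**
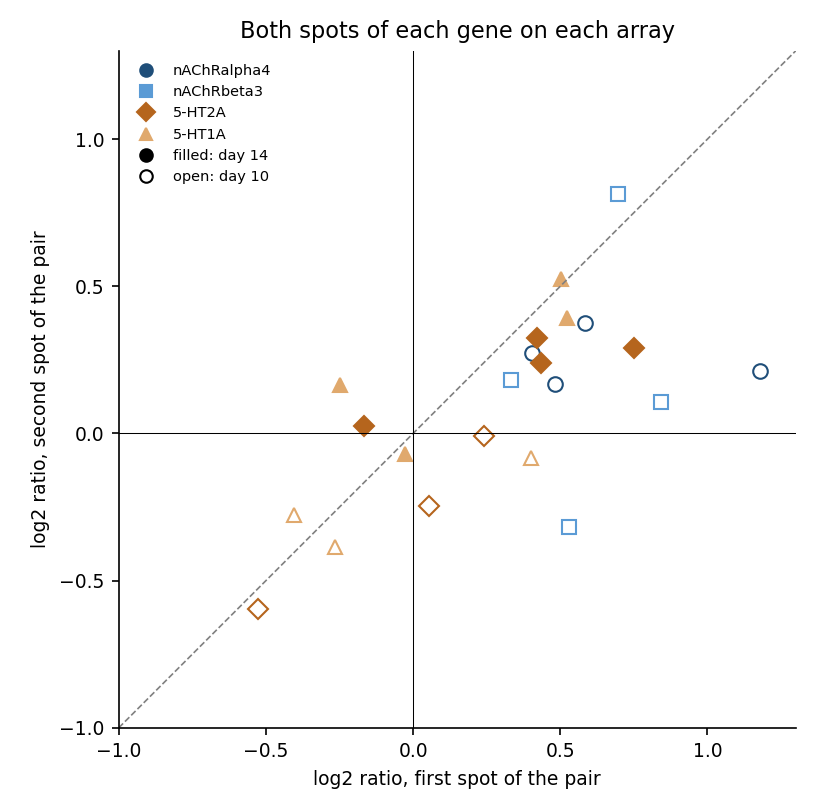
Log2 ratio of the first spot (x axis) against the second spot (y axis) of the same gene on the same array; symbols mark the gene, filled symbols are day 14 and open symbols day 10, and the dashed line marks equal values. Open nicotinic symbols lie mostly below the line, farthest for nAChRalpha4 on replicate 1 at 1.18 against 0.21.

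Neither nicotinic gene can be followed to day 14. Both were blank on all 4 day 14 arrays, although both had values on all 4 day 10 arrays. Of the 3375 named genes with values on all 4 day 10 arrays, 382 (11.3%) had none at day 14 and 1482 (43.9%) had all 4. Among the 5 nicotinic subunit genes named on the array, 1 was measured on at least 3 arrays at day 14 and 5 at day 10. Of the 6793 named genes, 3172 were fitted at day 14 and 5232 at day 10 under the same rule. Spots were filtered before deposit on saturation, flags, uniformity and signal-to-noise. The series text also names a minimum of 100 intensity units. Which criterion left a cell blank is not given. A blank cell gives no level.

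The other nicotinic subunits were not uniformly above 0. nAChRbeta1, a subunit shared by many fly nicotinic receptors, had 0.21, 0.42, -0.20 and 0.10 on the day 14 arrays and 0.58, 0.85, -0.40 and -0.51 on the day 10 arrays. Its values were positive where the treated RNA was in Cy5 and, except for day 14 replicate 4, negative where it was in Cy3, and its dye term was 0.38 ± 0.11 (SE, n = 8). The fitted ratio of nAChRbeta1 was 0.13 ± 0.15 at day 14 and 0.13 ± 0.16 at day 10 (adjusted p = 0.999 and 0.81 with limma). The difference between the days was 0.00 ± 0.22, with a 95% interval from -0.47 to 0.47.

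nAChRbeta2 and nAChRalpha2 each had values on 3 day 10 arrays. nAChRbeta2 was at -1.16, -0.04 and 0.20 on replicates 1, 2 and 4. nAChRalpha2 was at -0.99, -0.21 and 0.55 on replicates 1 to 3. Both genes were lowest on replicate 1, the array on which nAChRalpha4 was highest. Their fitted ratios were -0.20 ± 0.29 and -0.02 ± 0.24 (SE, n = 3), and neither passed (adjusted p = 0.85 and 0.98 with limma). Over the 5 subunits at day 10, 3 lay above 0 and 2 below, with a median of 0.13, beside 56.5% above 0 and a median of 0.04 over all 11509 features. At an adjusted p of 0.05 limma called 0 of the 5 subunits and 0 of the 11509 features (0%), and an unadjusted p under 0.05 was reached by 768 features (6.67%). In the upward direction it was reached by 430 features (3.74%) and by 1 subunit, nAChRalpha4, from which nothing is read because its day 10 value chose it.

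The serotonin receptor genes stood above 0 in the fit of day 14 and below 0 in the fit of day 10. 5-HT2A had 0.34, -0.07, 0.37 and 0.52 on day 14 replicates 1 to 4, against -0.10, 0.12 and -0.56 on day 10 replicates 2 to 4. The days overlapped through day 14 replicate 2, which lay below day 10 replicate 3. 5-HT1A had -0.05, -0.04, 0.51 and 0.46 on day 14 replicates 1 to 4, against -0.33, -0.34 and 0.16 on day 10 replicates 1, 2 and 4. Its days overlapped too, and at each day its arrays with treated RNA in Cy3 lay above those with treated RNA in Cy5.

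At day 10, whose values did not choose them, neither serotonin receptor gene passed. The fitted ratio of 5-HT2A was -0.20 ± 0.20 (SE, n = 3), with a 95% interval from -0.66 to 0.25 and an adjusted p of 0.78 with limma. It was below 0 on 2 of 3 arrays and rested on replicate 4: without that array it was 0.01 ± 0.19, without replicate 2 it was -0.38 and without replicate 3 it was -0.33. The fitted ratio of 5-HT1A was -0.08 ± 0.14 (SE, n = 3), with an interval from -0.41 to 0.25 and an adjusted p of 0.87. It too was below 0 on 2 of 3 arrays, and it was 0.01 when the arrays were scaled to one spread. These fits took the dye term and the variance from both days, so day 14 values entered them. With day 10 fitted alone, 5-HT2A was -0.16 ± 0.23 and 5-HT1A -0.09 ± 0.18 (adjusted p = 0.87 and 0.91 with limma). If the swapped arrays had been turned before deposit, the day 10 ratios would be 0.15 for 5-HT2A and -0.31 for 5-HT1A (adjusted p = 0.67 and 0.23 with limma).

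At day 14 the fitted ratios were 0.29 ± 0.16 for 5-HT2A, or 1.22-fold, and 0.22 ± 0.12 for 5-HT1A, or 1.16-fold (SE, n = 4 each). The SDs between arrays were 0.25 and 0.31. 5-HT2A was above 0 on 3 of 4 arrays and 5-HT1A on 2 of 4. At day 14, 6.3% of features with 4 values were above 0 on all 4 arrays, and neither serotonin receptor gene was among them. limma called 0 of the 7529 features (0%) at day 14, with 300 (3.98%) at an unadjusted p under 0.05. With day 14 fitted alone it called 70 features, with 887 at an unadjusted p under 0.05, and with the arrays scaled to one spread 39, with 854. Of the named genes fitted at day 14, 96.7% lay below 5-HT2A and 92.8% below 5-HT1A.

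Dye terms of the 2 receptors were fitted but not compared with each other by a test. 5-HT1A had a dye term of -0.26 ± 0.09 and 5-HT2A one of -0.07 ± 0.12 (SE, n = 7 arrays each), beside a median size of 0.15 over all features fitted at day 14. On the day 14 arrays 5-HT1A outranked 43.8% and 44.0% of named genes with the treated RNA in Cy5, and 96.4% and 97.2% with it in Cy3. 5-HT2A outranked 86.3%, 40.9%, 90.4% and 98.2% on day 14 replicates 1 to 4. If the swapped arrays had been turned before deposit, the day 14 ratios would be -0.16 for 5-HT2A and -0.27 for 5-HT1A.

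The fitted difference of day 14 minus day 10 was 0.49 ± 0.24 for 5-HT2A (95% interval from -0.05 to 1.03) and 0.30 ± 0.19 for 5-HT1A (-0.12 to 0.73). Both intervals included 0. For 5-HT2A the difference was 0.28 without day 10 replicate 4. If the swapped arrays had been turned before deposit, the difference would be -0.31 for 5-HT2A and 0.04 for 5-HT1A. Within a dye orientation, every day 14 array lay above every day 10 array for both genes, closest for 5-HT2A at -0.07 on day 14 replicate 2 and -0.10 on day 10 replicate 2. This held for 4.49% of the 6419 features compared between the days, which had values on at least 3 of 4 arrays per day. Both genes had values on 3 day 10 arrays, with which this is easier to meet than with all 4. Without regard to orientation, the lowest day 14 array lay above the highest day 10 array for 2.26% of features and for neither receptor gene. The first share was met by both genes, and nothing is read from it because the day 14 values chose the genes. limma called 0 of the 6419 features (0%) in this comparison, with 402 (6.26%) at an unadjusted p under 0.05.

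Print blocks moved with some of these values. At day 10 the nAChRbeta1 block had medians of 0.21, 0.64, -0.34 and -0.19 on replicates 1 to 4, of the same signs as the gene. The nAChRalpha2 block had -0.77, -0.34 and 0.36 on replicates 1 to 3, again of the gene's signs. The nAChRalpha4 block had -0.25, -0.11, 0.13 and 0.25 and the nAChRbeta3 block -0.29, -0.04, 0.05 and 0.08, negative on replicates 1 and 2 and positive on replicates 3 and 4. Both genes lay above 0 on replicates 1 to 4, by the values that chose them. The part of print position in the values of these genes and of the serotonin receptor genes was not tested. The median of the 5-HT1A print block was 0.05, -0.28 and 0.29 on day 10 replicates 1, 2 and 4, and 0.12, -0.17, 0.13 and 0.01 on the day 14 arrays. The 5-HT2A block had -0.11, 0.15 and -0.22 on day 10 replicates 2 to 4, of the gene's signs on each. On the day 14 arrays it had 0.02, 0.10, -0.045 and 0.05, of the opposite sign to the gene on replicates 2 and 3. With each block centred on its own median, 5-HT1A was 0.20 ± 0.13 at day 14 and -0.14 ± 0.16 at day 10. The same step gave 5-HT2A 0.26 ± 0.14 at day 14 and -0.14 ± 0.18 at day 10. At day 10 it left nAChRalpha4 at 0.45 ± 0.16 and nAChRbeta3 at 0.45 ± 0.18.

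The spots of 5-HT1A lay closer together than those of most pairs on 5 of 7 arrays, and those of 5-HT2A on 2 of 7. On day 14 replicate 3 the spots of 5-HT1A were at 0.50 and 0.52, a gap larger than that of only 6.9% of pairs. Its widest gaps were 0.41 on day 14 replicate 2 and 0.48 on day 10 replicate 4, larger than those of 89.0% and 82.2% of pairs. The spots had opposite signs on both arrays, and the second is the array on which 5-HT1A lay above 0 at day 10. For 5-HT2A the widest gap was 0.46 on day 14 replicate 4, with both spots above 0. The spots of 5-HT2A had opposite signs on 3 of 7 arrays, day 14 replicate 2 and day 10 replicates 2 and 3. Fitted from first spots alone, 5-HT2A was 0.36 ± 0.18 at day 14 and -0.11 ± 0.23 at day 10, and from second spots alone 0.22 ± 0.14 and -0.30 ± 0.18. First spots gave 5-HT1A 0.19 ± 0.13 at day 14 and 0.02 ± 0.15 at day 10, and second spots gave 0.25 ± 0.12 and -0.19 ± 0.15.

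5-HT7, the remaining serotonin receptor gene named on the array, had 0.20 and 0.03 on day 14 replicates 1 and 3, too few to fit, and -0.18, -0.06, 0.16 and -0.12 on the day 10 arrays. Its fitted ratio at day 10 was -0.05 ± 0.14 (SE, n = 4, adjusted p = 0.92 with limma). At day 10 the fitted ratios of all 3 serotonin receptor genes lay below 0, with a median of -0.08, beside 56.5% of all features above 0, and limma called 0 of the 3 genes and 0 of the 11509 features (0%). The sign was not stable: 5-HT1A was 0.02 from first spots and 0.01 on scaled arrays, and 5-HT2A was 0.01 without replicate 4.

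**Figure D3:**
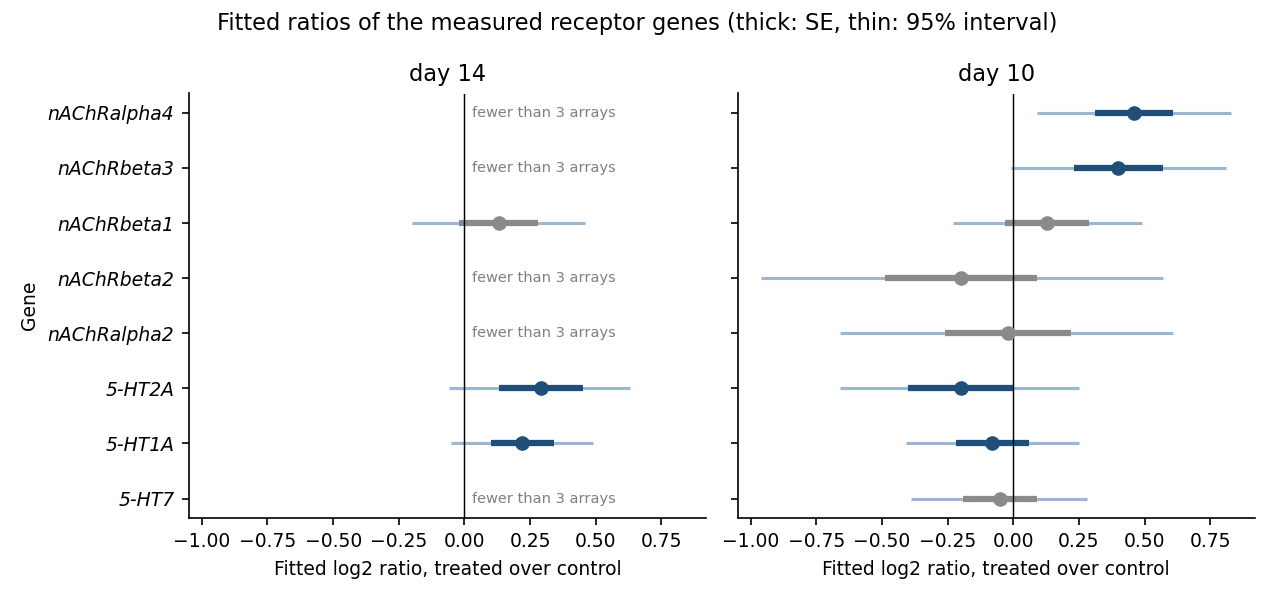
Fitted log2 ratio of treated over control RNA (x axis) for each measured nicotinic and serotonin receptor gene (y axis), with day 14 in the left panel and day 10 in the right; points are fitted values, thick lines the standard error and thin lines the 95% interval, with the 4 chosen genes in dark blue. nAChRalpha4 at 0.46 and nAChRbeta3 at 0.40, chosen for their day 10 values, lie right of the other 3 subunits at day 10, with intervals that overlap theirs. 5-HT2A and 5-HT1A lie right of 0 at day 14, the day whose values chose them, and left of 0 at day 10.

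Genes that make, move or remove the transmitters were few on the array. Ace, the enzyme that breaks down acetylcholine, was at 0.02 ± 0.13 at day 14 and -0.21 ± 0.13 at day 10. ChT, a choline transporter, was at 0.20 ± 0.13 at day 14 and 0.09 ± 0.16 at day 10. Ddc, the decarboxylase that completes serotonin and dopamine synthesis, was at -0.03 ± 0.22 at day 14 and 0.02 ± 0.24 at day 10. Pu, which begins synthesis of the cofactor of serotonin synthesis, was at 0.03 ± 0.14 at day 14 and 0.25 ± 0.15 at day 10. None of these 4 genes passed on either day (adjusted p from 0.73 to 0.999 with limma), and 0 reached an unadjusted p under 0.05.

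Ly6-type proteins can modulate nicotinic receptors, as qvr, also called sleepless, does in flies. qvr was at 0.11 ± 0.13 at day 14 and 0.06 ± 0.14 at day 10. twit was at -0.16 ± 0.17 at day 14 and -0.01 ± 0.18 at day 10, and cold, with too few day 14 values to fit, was at 0.01 ± 0.15 at day 10. The muscarinic receptor gene mAChR-B was at -0.09 ± 0.20 at day 10 (n = 3) and had no value at day 14. All 4 genes lay nearer to 0 at day 10 than nAChRalpha4 and nAChRbeta3. Nothing is read from this, because the nicotinic genes were chosen for their day 10 values.

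Receptors of other transmitters gave no call. Among dopamine, octopamine and tyramine receptors, 2 of 3 lay above 0 at day 14 and 2 of 3 at day 10, with medians of 0.20 and 0.02. DopEcR, a receptor for dopamine and ecdysone, was at 0.30 ± 0.17 at day 14 and 0.02 ± 0.18 at day 10. The octopamine receptor gene Octbeta2R was at -0.13 ± 0.13 at day 14, Octbeta1R at 0.27 ± 0.25 and the tyramine receptor gene TyrR at -0.13 ± 0.19 at day 10. Of glutamate receptors, 1 of 2 lay above 0 at day 14 and 4 of 5 at day 10. The glutamate-gated chloride channel gene GluClalpha was at 0.20 ± 0.15 at day 14 and 0.24 ± 0.18 at day 10, GluRIIA at -0.24 ± 0.20 at day 14 and the kainate-type receptor gene KaiR1D at -0.25 ± 0.17 at day 10.

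A list of G protein signalling genes was read beside the serotonin receptors, and it includes the phototransduction genes Arr1 and inaC. Its genes lay above 0 in 6 of 11 cases at day 14 and in 8 of 11 at day 10, with medians of 0.09 and 0.14. Over all features, 49.3% lay above 0 at day 14 and 56.5% at day 10, with medians of 0.00 and 0.04. Galphao, a G protein subunit of the Gi/o class, was at 0.25 ± 0.13 at day 14 and Gbeta5 at 0.19 ± 0.13. Galphas, which couples receptors to cyclic AMP synthesis, was at 0.38 ± 0.23 at day 10, and the receptor kinase gene Gprk2 at 0.30 ± 0.17 with all 4 arrays above 0. limma called 0 of these genes on either day, and 0 reached an unadjusted p under 0.05.

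**Figure D4:**
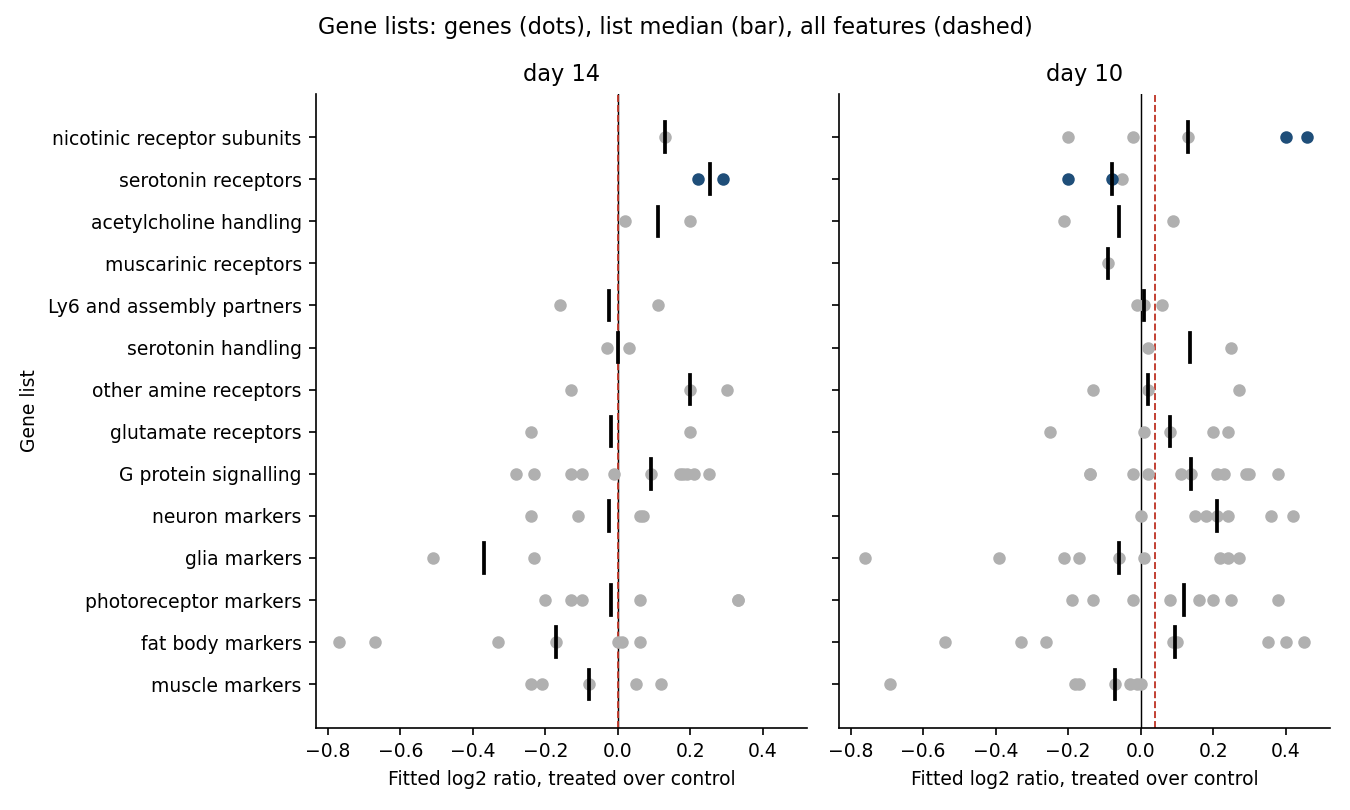
Fitted log2 ratio of treated over control RNA (x axis) for every fitted gene of 14 gene lists (y axis), with day 14 in the left panel and day 10 in the right; dots are genes, with the 4 chosen genes in dark blue, bars are list medians and the dashed line is the median of all features. The nicotinic members, chosen for their day 10 values, mark the right end of their list at day 10. The neuron marker list has its median at 0.21 at day 10 and -0.02 at day 14.

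Markers of the cell types in a head were read beside these values. Of 7 measured neuron markers at day 10, 6 lay above 0, with a median of 0.21, led by the adhesion protein genes Nrt at 0.42 ± 0.17 and Nrg at 0.36 ± 0.23. At day 14, 2 of 4 neuron markers lay above 0, with a median of -0.02, and Rop, a gene of vesicle release, was at -0.24 ± 0.15 and nSyb, a synaptic vesicle gene, at -0.11 ± 0.16. The medians of the neuron list on day 10 replicates 1 to 4 were 0.62, 0.52, -0.30 and -0.11, positive where treated RNA was in Cy5 and negative where it was in Cy3. The nicotinic members were above 0 on all 4 of these arrays, by the values that chose them, and nothing is read from this. The part of neuron content in the receptor values was not tested.

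At day 14, 2 of 2 glia markers lay below 0, with a median of -0.37, against 5 of 9 at day 10, with a median of -0.06. They were the astrocyte-like glia marker alrm at -0.51 ± 0.19 and the glutamine synthetase gene Gs2 at -0.23 ± 0.13, while at day 10 the smallest p values belonged to Mdr65, a transporter gene of the blood-brain barrier, at -0.76 ± 0.26 and e at -0.39 ± 0.21. Of photoreceptor markers 3 of 6 lay above 0 at day 14 and 5 of 8 at day 10, with medians of -0.02 and 0.12. Slob was at 0.33 ± 0.16 and rdgA, a diacylglycerol kinase gene of phototransduction, at 0.33 ± 0.17 at day 14, and at day 10 Slob was at 0.25 ± 0.17 and the calcium-binding protein gene Cpn at 0.38 ± 0.24. Fat body markers had medians of -0.17 at day 14 (2 of 7 above 0) and 0.09 at day 10 (5 of 8), and muscle markers -0.08 (2 of 5) and -0.07 (1 of 7). The fat body genes Cyp4d21, at -0.77 ± 0.18 at day 14 and -0.54 ± 0.20 at day 10, and sxe2, at -0.67 ± 0.13 at day 14, lay below 0 on every array that measured them, and Fbp2 was at 0.45 ± 0.20 at day 10. Of muscle genes, the actin genes Act79B and Act88F were at -0.21 ± 0.13 and -0.24 ± 0.17 at day 14, and Act87E was at -0.17 ± 0.13 and flr at -0.69 ± 0.19 at day 10. limma called 0 markers on either day after adjustment. An unadjusted p under 0.05 with limma was reached by alrm (0.022), sxe2 (0.00049) and Cyp4d21 (0.0015) at day 14. At day 10 it was reached by Nrt (0.048), Mdr65 (0.029), Cyp4d21 (0.025) and flr (0.012). Over all features it was reached by 3.98% at day 14 and 6.67% at day 10. Mdr65 had -1.70, -1.11 and 0.07 on day 10 replicates 1, 2 and 4, with a dye term of -0.47 ± 0.20. The part of these markers in the receptor values was not tested. Ratios carry no level, so presence of a cell type cannot be read from them.

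Genes with the profile most like a receptor's were named from Pearson's r over the arrays that measured it, among genes with values on all of those arrays. For 5-HT2A, over 7 arrays and 1537 genes, these were GlcAT-P (r = 0.93), Alms1b (0.89) and CG4073 (0.88). For 5-HT1A, over 7 arrays and 1771 genes, they were CG4553 (0.99), Lime (0.98) and Hnf4 (0.98). With no array turned for its dye, r for 5-HT1A was 0.74 with CG4553, 0.82 with Lime and 0.93 with Hnf4. The arrays share dyes and print patterns, and these values are the highest of many, so they are descriptions. 5-HT2A and 5-HT1A, over their 6 shared arrays, had r = 0.46 with each other. nAChRalpha4 and nAChRbeta3 had 4 arrays each, too few for this measure.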

How the data were processed

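Head RNA was measured on 8 2-colour cDNA arrays, 4 per day. Per the labels and the series text, the authors quantified the slides with GenePix Pro 6.0, normalised ratios in Acuity 4.0 and filtered spots on saturation, flags, R2 and signal-to-noise. A minimum of 100 intensity units is also named there. The deposited values are log2 ratios, judged from the values, since their unit and direction were not stated. Array medians ran from -0.34 to 0.00, so each array was centred, and dye-swapped arrays were turned. The 2 values at the cap of 16.6 were left out. Of 27648 rows, 15116 named 1 gene (platform annotation), of which 14894 matched RefSeq by gene ID, 102 several and 12430 none. Rows of a gene were averaged.

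limma 3.58.1 in R 4.3.3 fitted all 8 arrays together with a mean per day and a gene-wise dye term. A feature needed values on 3 of 4 arrays of each day compared. P values were adjusted by Benjamini-Hochberg over all features, with 0.05 as the threshold. Arrays, 4 per group, limit the precision. The series text calls them biological replicates of pooled heads, and whether arrays shared control RNA was not checked. Members and lists were chosen with earlier results of these data known. Named genes were the members, their receptor families, the genes handling both transmitters, the 2 genes per other list and day with the smallest p, and the 3 most alike per member.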

Additional observations from a re-analysis of the deposited data

How the results depend on the processing

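Values of nAChRalpha4, nAChRbeta3, 5-HT2A and 5-HT1A were recomputed without a dye term, with each day fitted alone, without centring, with print blocks centred, with arrays scaled to one spread, with medians over rows, with all 4 arrays required, with swapped arrays taken as already turned, and without each array. Using 1 spot of each pair was added after the data were seen. Taking swapped arrays as already turned changed most: nAChRalpha4 was 0.05 and nAChRbeta3 -0.11 at day 10, 5-HT2A was -0.16 at day 14 and 0.15 at day 10 with a difference of -0.31, and 5-HT1A was -0.27 at day 14 and -0.31 at day 10 with a difference of 0.04, with 304 features called at day 10. The first spots alone gave nAChRalpha4 0.66 and 5-HT1A 0.02 at day 10, and the second spots alone gave nAChRalpha4 0.26. Scaled arrays gave 5-HT1A 0.01 at day 10 and 39 calls at day 14, and day 14 fitted alone gave 70 calls. Among the remaining settings, 1 changed the sign of a value of these genes, that of 5-HT2A at day 10 without replicate 4. Requiring all 4 arrays leaves no day 10 value and no difference for the serotonin receptor genes.

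Leaving out 1 array gave 0.37 to 0.55 for nAChRalpha4, 0.27 to 0.52 for nAChRbeta3, -0.38 to 0.01 for 5-HT2A and -0.09 to -0.07 for 5-HT1A at day 10. It gave 0.22 to 0.41 for 5-HT2A and 0.21 to 0.23 for 5-HT1A at day 14, and 0.28 to 0.67 and 0.29 to 0.31 for their differences. Calls stayed at 0 on each day and ran from 0 to 1 in the difference, with 1 without day 10 replicate 4. The causes were not tested.

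The replicate number was also used as a block in the comparison of day 14 with day 10. The replicate block gave 0.45 ± 0.28 for 5-HT2A and 0.29 ± 0.24 for 5-HT1A and 0 calls. Deviations of same-numbered arrays correlated at 0.06, 0.42, 0.39 and 0.10, and 2 of 4 day 10 arrays correlated best with their own number. Same-numbered arrays also share a dye orientation. All correlations between days were above 0 within an orientation and below 0 across orientations, so this check cannot decide pairing. The numbers were not taken as pairs.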
